A study of Xenopus laevis with 3 samples.

Results

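The small RNA library from embryos injected with an antisense morpholino against *fry* (Fry-MO) was set directly against the library from embryos injected with an antisense oligonucleotide against *lhx1* (Lhx1-AS). The sequences compared were those that carried a *Xenopus laevis* (prefix xla) or *Xenopus tropicalis* (prefix xtr) miRNA name and had at least 10 raw reads in either library. This rule took 96 of the 175 *Xenopus*-named sequences, among 1985 listed sequences of all names, with 14 named after *X. laevis* and 82 after *X. tropicalis*. At the edge of the rule, miR-205 entered with 3 reads in Lhx1-AS and 10 in Fry-MO, and miR-34a stayed out with 2 and 9.

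*Xenopus laevis* embryos were injected at the 4-cell stage into both dorsal blastomeres, and the dorsal part of the gastrula was collected at stage 10.5. The labels give a temperature of 14 °C for every group. One group received 20 ng of the Fry-MO, which blocks translation of the *fry* mRNA, and another received 400 pg of the Lhx1-AS, a chemically modified DNA oligonucleotide that leads to degradation of the *lhx1* mRNA. Both injected groups also received a rhodamine dextran tracer and were picked for red fluorescence, so injection and picking were shared by both sides of the comparison, while the uninjected embryos of the series had neither. Each library held 30 dorsal pieces pooled from 3 experiments, there was 1 library per condition, and no library of embryos injected with a control oligonucleotide was among those analysed. No p-value can therefore be given. Every 95% interval below is an exact (Clopper-Pearson) interval of the share of reads carried to the ratio, and covers counting error only, not the spread between batches of embryos or in PCR. A ratio is the normalized count in Fry-MO over that in Lhx1-AS. The authors' normalized count is the raw read number divided by a library size parameter, so that 1 read was worth 1.14 normalized counts in Fry-MO and 1.29 in Lhx1-AS. A miRNA is called higher or lower where this ratio was at least 2 or at most 0.5, which is a rule of size and not a test. The *fry* and *lhx1* mRNAs are not read out in small RNA libraries, so the knockdowns themselves were not checked here.

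A miRNA is cut from a hairpin precursor whose 5p and 3p arms can each give a mature strand, and the strand kept in the Argonaute protein guides it to mRNAs mainly through its seed, bases 2 to 8. Neighbouring miRNAs are often cut from 1 shared primary transcript, and miRNAs with 1 seed form a family. In the frog gastrula the miR-427 family is abundant and is known for clearing maternal mRNAs and for acting on Nodal signalling, and many other miRNAs are known from tissues that form later.

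The miRNAs on which the comparison turned are printed as the deposited table lists them, 5′ to 3′, in DNA letters, with the seed in capitals. The mir-183, mir-96 and mir-182 cluster, known from sensory organs, held the largest ratio, that of miR-96 on 1 read in Lhx1-AS, and 2 further members of the highest 10.
miR-96: tTTGGCACtagcacatttttgct
miR-183: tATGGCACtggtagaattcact
miR-182-5p: tTTGGCAAtggtagaactcacacc
The miR-15/16 family is shown because its 5 compared members shared the seed AGCAGCA and held both the second largest ratio and a lower call.
miR-15a: tAGCAGCAcataatggtttgt
miR-15b: tAGCAGCAcatcatgatttgc
miR-15c: tAGCAGCAcatcatggtttgta
miR-16b: tAGCAGCAcgtaaatattgggt
miR-16c: tAGCAGCAcgtaaatactggag
The miR-130 pair and 2 let-7 members are shown for the same reason, 1 seed with unlike ratios.
miR-130a: cAGTGCAAtgttaaaagggcatt
miR-130b: cAGTGCAAtgatgaaagggcat
let-7i: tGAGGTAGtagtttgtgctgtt
let-7c: tGAGGTAGtaggttgtatggtt
Both arms of miR-126, from an intron of an endothelial gene in vertebrates, are shown because they differed in ratio.
miR-126-5p: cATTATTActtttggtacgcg
miR-126-3p: tCGTACCGtgagtaataatgca
The early embryonic pair miR-427 and miR-428 is shown because both ratios were below 1.
miR-427: aAAGTGCTtcctgttttgggcgt
miR-428: tAAGTGCTctctagttcggttgct
A listed sequence can differ from the entry it is named after by bases at its ends or by a substitution, so each seed was read from the listed sequence.

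Most of the *Xenopus*-named miRNAs had a higher normalized count in Fry-MO than in Lhx1-AS. Of the 96, 53 were called higher in Fry-MO (55.2%), 9 were called lower (9.38%) and 34 were less than 2-fold apart. The counting interval lay above 1 for 57 (59.4%) and below 1 for 12 (12.5%). The median ratio was 2.60, with quartiles at 0.920 and 5.26, and 15 miRNAs were at least 10-fold higher. Over the 323 listed sequences of any name with 10 reads in either library, 47.7% were called higher and 18.3% lower, and intervals lay above 1 for 48% and below 1 for 21.1%.

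**Figure D1:**
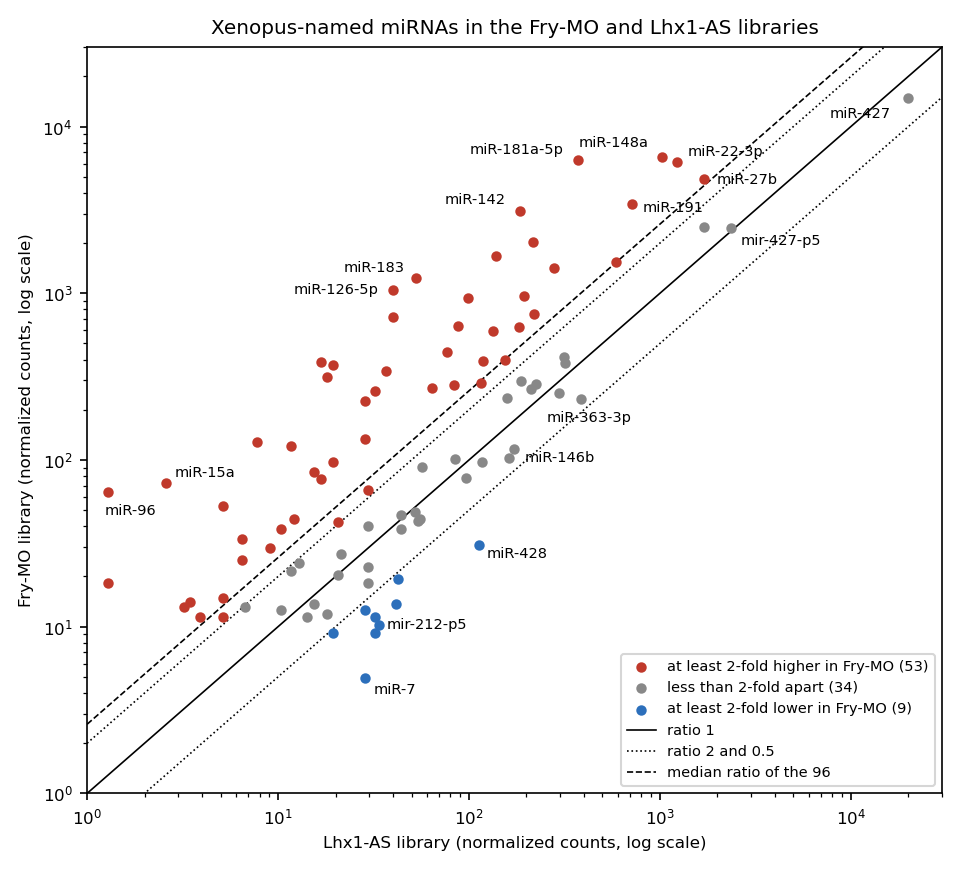
Normalized counts of the 96 *Xenopus*-named miRNAs in the Lhx1-AS library (x axis, log scale) and the Fry-MO library (y axis, log scale), 1 point a miRNA, with lines at ratios of 1, 2, 0.5 and the median of 2.60. The 53 miRNAs called higher in Fry-MO reach from 1.29 to 1710 normalized counts in Lhx1-AS, whereas miR-427, the most read, lies just under the line of equal counts.

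The direction of these counts depended on how the libraries were put on 1 scale. The Fry-MO library had fewer mappable reads, 2125966 against 2451390 in Lhx1-AS, but more reads on listed miRNA sequences, 108041 or 5.08% of its mappable reads against 56026 or 2.29%. Scaled to the listed reads, the split moved from 53 higher and 9 lower to 41 higher and 21 lower. Scaled to the *Xenopus*-named reads without mir-427 and mir-428, it became 18 higher and 43 lower, with the median of the log2 ratio at -0.64 in place of 1.35. Under that scaling 34 of the 70 ratios above 1 turned below 1, including those of 17 of the 53 called higher. Scaled to the mappable reads, the shift went the other way. The split was then 58 higher and 6 lower, and 81 ratios in place of 70 lay above 1. Ratios are therefore also described relative to the median ratio, where 25 miRNAs were at least 2-fold above it (5.20 or more) and 34 at least 2-fold below it (1.299 or less), and comparisons of a pair of miRNAs within each library are given because no scaling enters them. Of the 96, 73 reached 10 reads in both libraries, with 37 called higher, 5 lower and a median ratio of 2.04. Another 19 reached 10 reads in Fry-MO alone, which makes a higher call likely by construction, and 16 of them had one. The remaining 4 reached 10 reads in Lhx1-AS alone, and all 4 were called lower.

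Under the authors' scaling, the miRNAs of the early embryo stood near or below a ratio of 1. miR-427 had 38438 raw reads in the uninjected library, 15455 in Lhx1-AS and 13081 in Fry-MO, the most of any *Xenopus*-named sequence in each library. Its ratio was 0.746 (0.729 to 0.764). The other listed products of its hairpin, mir-427-p5 and mir-427-p3, had ratios of 1.05 and 0.833, with intervals that held 1. miR-428, with the same seed as miR-427, had 31 reads in the uninjected library, 87 in Lhx1-AS and 27 in Fry-MO, a ratio of 0.274 (0.171 to 0.426). It was high in Lhx1-AS and at the uninjected level in Fry-MO. Of the 5 early embryonic members compared, none was called higher and 2 were called lower, miR-428 and mir-302-p5, the latter named here after its value was seen. Over all 96, 55.2% were called higher and 9.38% lower. Scaled to the *Xenopus* reads other than mir-427 and mir-428, the same reads put all of these ratios below 1. Scaled to the mappable reads, mir-427-p5 and mir-427-p3 stood above 1, at 1.38 and 1.09. miR-427 was then at 0.976 and miR-428 at 0.358.

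The 12 compared members of the mir-17-92 type clusters, known for promoting cell proliferation in vertebrates, had ratios from 0.282 to 1.48. None was called higher and 3 were called lower, xla-miR-363 and, named after their values were seen, miR-17-3p and miR-18a-3p. Over all 96, 55.2% were called higher and 9.38% lower. miR-18a-3p met the rule through its Lhx1-AS reads alone, which makes a lower call likely by construction. The median ratio of the 12 was 0.760. mir-92a-1-p5 had 299 reads in Lhx1-AS and 203 in Fry-MO, a ratio of 0.599 (0.499 to 0.718), and miR-92a from the other arm had 125 and 90.5, a ratio of 0.639 (0.482 to 0.844). xla-miR-363 was lower at 33 reads against 17 (0.454, 0.237 to 0.839). The entry xtr-miR-363-3p is a different sequence, with the seed ATTGCAC in place of GGGTGGA, and had 228 and 222 (0.859, 0.711 to 1.04). miR-25 stood a little above 1, with 173 reads against 249 (1.27, 1.04 to 1.55), but at 0.746 when scaled to the listed reads and 0.313 without mir-427 and mir-428. The highest ratio of the 12 was that of miR-93a, with 123 reads against 206 (1.48, 1.18 to 1.86). miR-19b had 23 against 35 (1.34, 0.771 to 2.38). Both are named after their values were seen. Scaled to the mappable reads, xtr-miR-363-3p stood at 1.12.

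The compared miRNAs known from blood cells and blood vessels were all on the higher side. Of the 8 listed, 5 reached 10 reads and all 5 were called higher in Fry-MO, with a median ratio of 16.9. Over all 96, 55.2% were called higher. miR-142, found in most blood cell lineages, had 156 raw reads in the uninjected library, 143 in Lhx1-AS and 2748 in Fry-MO. Its ratio was 16.9 (14.3 to 20.2). miR-451, known from maturing red blood cells and cut by Argonaute itself, had 53, 31 and 632 reads, a ratio of 18.0 (12.5 to 26.7). Its neighbour miR-144, named after its value was seen, had 9 reads in Lhx1-AS and 107 in Fry-MO, and so met the rule through Fry-MO alone. For these miRNAs Fry-MO stood apart while Lhx1-AS was near the uninjected library. Summed over the 5, raw reads were 334 in Lhx1-AS and 4759 in Fry-MO. Below 10 reads, mir-150-p3 went the other way, with 9 reads in Lhx1-AS and 3 in Fry-MO. miR-223 had 0 and 7, and miR-150 had 1 and 2. These members below 10 reads are named after their values were seen.

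miR-126-5p had 46 reads in the uninjected library, 31 in Lhx1-AS and 922 in Fry-MO, a ratio of 26.2 (18.4 to 38.8). The opposite arm miR-126-3p had 91, 120 and 350, a ratio of 2.57 (2.09 to 3.19) that turned to 0.635 when scaled without mir-427 and mir-428. The number of 5p reads per 3p read was 0.258 in Lhx1-AS, 0.505 in the uninjected library and 2.63 in Fry-MO. This change in the share of the arms was 10.2-fold between the injected libraries (6.67 to 15.9) and does not depend on the scaling.

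Markers named after other animals moved between the same libraries. miRNAs that rodents carry in an X-linked cluster, which a frog is not known to have, had 12 reads in the uninjected library, 1822 in Lhx1-AS and 21 in Fry-MO, and all 29 of these listed sequences had a read in Lhx1-AS against 6 in Fry-MO and 5 in the uninjected library. miRNAs of an imprinted cluster of placental mammals, a list made after the values were seen, had 50, 66.5 and 1357 reads, with 43 of 52 listed sequences read in Fry-MO, 17 in Lhx1-AS and 15 in the uninjected library. miR-486, known from mammalian red blood cells, was listed under names of other species only and had 202 reads in the uninjected library, 166 in Lhx1-AS and 3117 in Fry-MO, a ratio of 16.6 (14.2 to 19.5). Names of placental mammals made up 1.97% of listed reads without injection, 12.6% after Lhx1-AS and 13.9% after Fry-MO. Many mature miRNAs are the same in frogs and mammals, so a *Xenopus* name does not give the source of a read, and the part of such reads in the ratios given here was not tested.

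**Figure D2:**
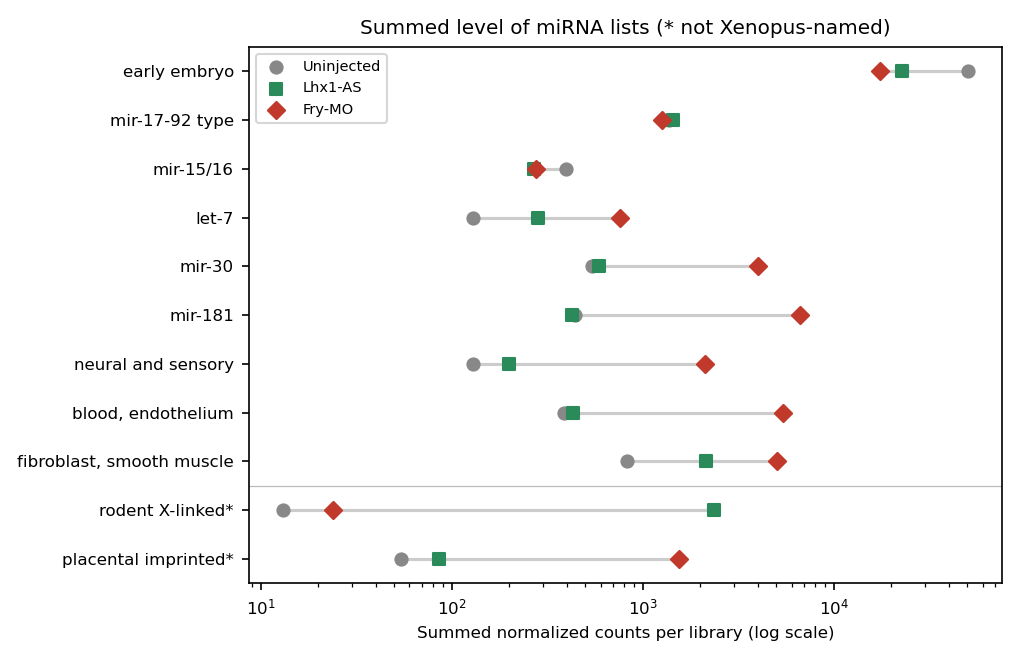
Summed normalized counts (log scale) in the 3 libraries, 1 group of points a list, for lists of *Xenopus*-named miRNAs compared and for lists named after other animals. The blood and endothelium list lies at 432 normalized counts in Lhx1-AS and 5427 in Fry-MO, the placental imprinted cluster at 86.0 and 1547, while the rodent X-linked list is high in Lhx1-AS alone.

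Among the miRNAs known from neural and sensory tissue, the 3 of the mir-183, mir-96 and mir-182 cluster were each at least 10-fold higher in Fry-MO. miR-183 had 47 reads in the uninjected library, 41 in Lhx1-AS and 1077 in Fry-MO, a ratio of 23.2 (17.0 to 32.5). miR-182-5p had 14, 14 and 275, a ratio of 17.3 (10.2 to 32.1). miR-96 had 1 read in the uninjected library, 1 in Lhx1-AS and 56 in Fry-MO, which gave a ratio of 49.4 with an interval from 8.51 to 1985. The single Lhx1-AS read sets that width, and the lower bound is the firmer value. miR-96 met the rule through its Fry-MO reads alone, which makes a higher call likely by construction. miR-183 and miR-182-5p kept their proportion, 2.93 reads of miR-183 per miR-182-5p read in Lhx1-AS and 3.92 in Fry-MO, a change of 1.34-fold whose interval (0.663 to 2.55) held 1.

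The other members of the neural and sensory list went both ways. Of its 10 compared members 6 were called higher and 2 lower, beside 55.2% higher over all 96, so the list did not stand out by its count. miR-338, known from neurons and glia in mammals, had 11, 13 and 339.5 reads in the uninjected, Lhx1-AS and Fry-MO libraries, a ratio of 23.0 (13.3 to 43.7). The lower calls were mir-212-p5 and miR-7, which met the rule through their Lhx1-AS reads alone. Of the higher calls, miR-96, mir-124-p3 and miR-9a-5p met it through their Fry-MO reads alone. mir-124-p3 and miR-9a-5p are named after their values were seen. Such calls are likely by construction. The sequence listed as mir-124-p3 has 15 bases, 1 substitution and the seed CAGGAGT, and was not shown to be mature miR-124. mir-212-p5 had 2, 26 and 9 reads, a ratio of 0.305 (0.126 to 0.672), and so was high in Lhx1-AS. miR-7, named here after its value was seen, had the lowest ratio of the 96 at 0.172 (0.0460 to 0.491), on 22.2 reads in Lhx1-AS and 4.33 in Fry-MO, reads that had been divided among sequences. Its count in the uninjected library was 1.33.

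**Figure D3:**
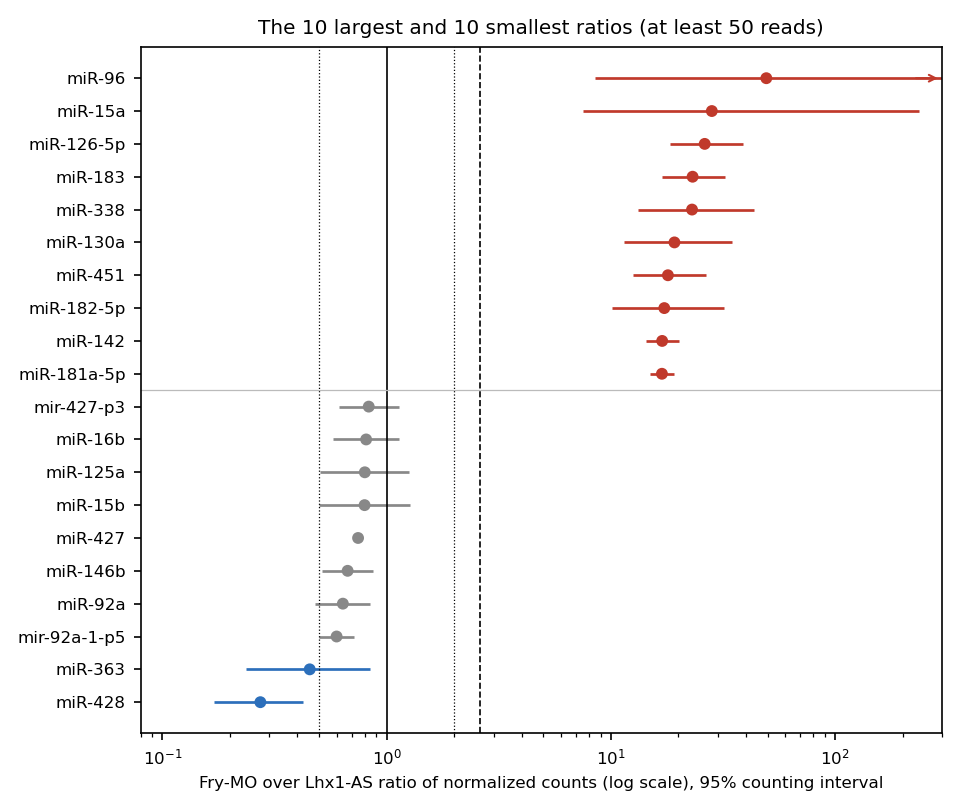
Ratio of Fry-MO over Lhx1-AS (x axis, log scale) for the 10 highest and the 10 lowest miRNAs with at least 50 reads over both libraries, with bars for the 95% counting interval. The upper bar of miR-96 ends beyond the axis, at 1985. All 10 high intervals lie above 7, and of the low ones only miR-428 is below 0.5 with its whole interval.

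In some families that share a seed, single members had unlike ratios. There were 17 seeds carried by at least 2 compared miRNAs, and these held 49 of the 96. In 6 of the 17 the highest ratio was at least 4-fold above the lowest. For miR-146 this spread rests on miR-146a, with 2.5 reads in Lhx1-AS, 11.5 in Fry-MO and an interval that held 1. Ratios were spread widely over all 96 as well, with quartiles at 0.920 and 5.26. Whether members of 1 family differed more or less than unrelated miRNAs was not tested. In 5 of the 17 every member was called higher. The 55.2% called higher over all 96 is a share of single miRNAs, not of groups, so it is no measure for this count. The 6 family pairs set against each other were chosen after their values were seen, and their change between the libraries is free of scaling.

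The miR-15/16 family, which in *Xenopus* acts on a Nodal receptor, held the widest spread, which rests on miR-15a, a miRNA that met the rule through its Fry-MO reads alone. miR-15a had 4 reads in the uninjected library, 2 in Lhx1-AS and 64 in Fry-MO, a ratio of 28.2 (7.50 to 238). miR-15c had 60, 34 and 34, and miR-15b 95, 42 and 38, with ratios of 0.882 and 0.798. miR-15a was thus the rare member in the uninjected and Lhx1-AS libraries and outnumbered miR-15c in Fry-MO. miR-16b had 131.5, 74.5 and 68.5 reads, a ratio of 0.811 whose interval held 1. Scaled to the mappable reads, miR-15c, miR-15b and miR-16b stood at 1.15, 1.04 and 1.06. miR-16c, named after its value was seen, was the 1 member called lower, on 22 reads against 11. A miR-15b sequence with the same seed, named after a placental mammal and differing in 2 bases, had 32 reads in Lhx1-AS and 147 in Fry-MO. Its ratio was 4.05 (2.75 to 6.14). The count of miR-15a per miR-15c read was 32-fold higher in Fry-MO than in Lhx1-AS, with an interval of 7.27 to 284.

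let-7 miRNAs, which rise as tissues differentiate, had 5 of 6 compared members called higher, beside 55.2% over all 96. let-7i had 16 reads in the uninjected library, 6 in Lhx1-AS and 113 in Fry-MO, a ratio of 16.6 (7.398 to 46.2). It met the rule through its Fry-MO reads alone. let-7f followed with 44, 22 and 197.3 reads and a ratio of 7.91 (5.08 to 12.9). let-7c, the most read of them in either injected library, stood at 36.3, 164.3 and 233.3, a ratio of 1.25 (1.02 to 1.54), and was high in both injected libraries. Its ratio was 0.736 when scaled to the listed reads. let-7i per let-7c read was 13.3-fold higher in Fry-MO than in Lhx1-AS (5.69 to 37.6), but was 0.440 in the uninjected library and 0.484 in Fry-MO against 0.0365 in Lhx1-AS.

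The mir-30 family, which is known to act on *lhx1* in the *Xenopus* pronephros, had all 6 compared members called higher, at ratios from 3.38 to 12.0. Over all 96, 55.2% were called higher. miR-30a-5p had 81 reads in the uninjected library, 107 in Lhx1-AS and 1457 in Fry-MO, a ratio of 12.0 (9.86 to 14.8). miR-30d had 147, 151 and 842, a ratio of 4.92, and miR-30e 40, 68 and 556, a ratio of 7.21. Lhx1-AS was close to the uninjected library for miR-30d and above it for miR-30e, while Fry-MO was above either. miR-30c, named after its value was seen, had 98.5, 64.5 and 247 reads, a ratio of 3.38 (2.56 to 4.51). miR-30a-5p per miR-30c read was 3.56-fold higher in Fry-MO than in Lhx1-AS (2.47 to 5.002). The opposite arm miR-30a-3p had 5 reads in Lhx1-AS and 22 in Fry-MO, a ratio of 3.88 (1.43 to 13.1). That arm met the rule through its Fry-MO reads alone. Under the scaling without mir-427 and mir-428, miR-30a-3p stood at 0.958 and miR-30c at 0.834.

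In each of the remaining pairs 1 member was less than 2-fold apart. miR-130a had 19 reads in the uninjected library, 15 in Lhx1-AS and 327 in Fry-MO, a ratio of 19.2 (11.5 to 34.8), and miR-130b had 54, 44 and 80, a ratio of 1.60. miR-148a, among the 5 most read, had 1806, 795 and 5738 reads, a ratio of 6.37 (5.91 to 6.86), and miR-148b 175, 145 and 261, a ratio of 1.59. Scaled to the listed reads, miR-130b and miR-148b stood at 0.943 and 0.933. miR-125b, a relative of the worm lin-4, had 67, 141.5 and 553 reads, a ratio of 3.45 (0.851 when scaled without mir-427 and mir-428), and miR-125a 89, 43 and 39, a ratio of 0.800. The change within these pairs was 12.0-fold for miR-130a per miR-130b (6.14 to 24.3), 4.01-fold for miR-148a per miR-148b (3.21 to 4.999) and 4.31-fold for miR-125b per miR-125a (2.60 to 7.07). Scaled to the mappable reads, miR-125a stood at 1.05. These pairs hold *Xenopus* names only. A miR-125a sequence with the same seed, named after a placental mammal, had 93.5 reads in Lhx1-AS and 537.5 in Fry-MO. Its ratio was 5.07 (4.06 to 6.39). Lined up with the *Xenopus* one from the first base without gaps, it differed at 6 of 22 positions. An inserted base shifts all bases after it, so this is not a count of substitutions.

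**Figure D4:**
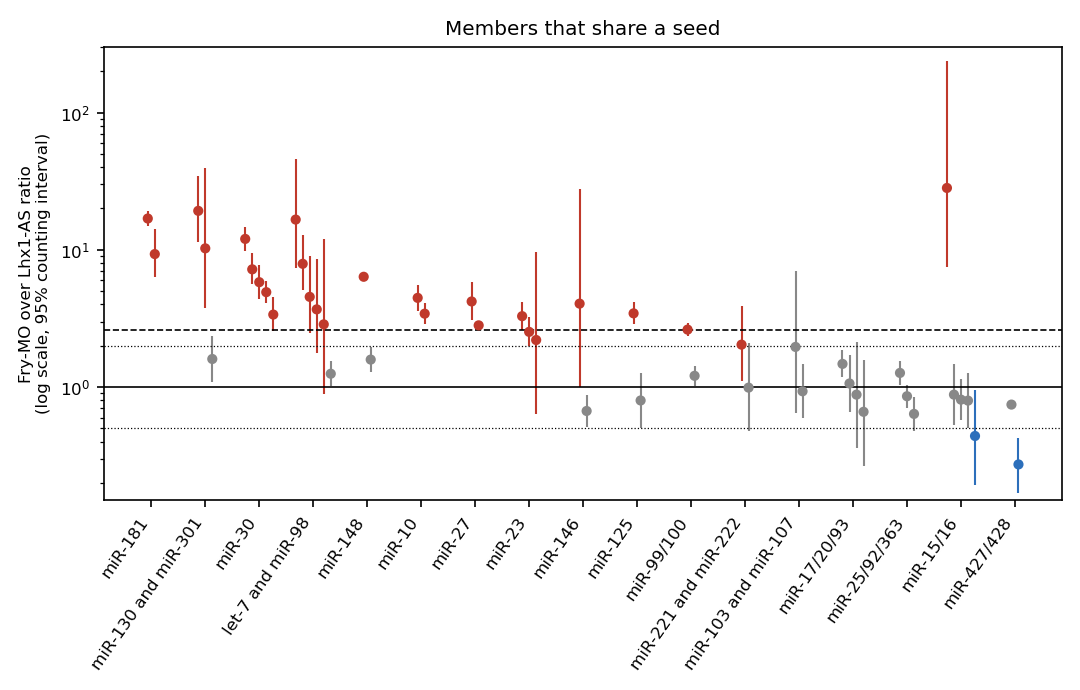
Ratio of Fry-MO over Lhx1-AS (y axis, log scale) for miRNAs that share a seed, 1 column a seed and 1 point a miRNA, with bars for the 95% counting interval. The miR-15/16 column runs from 0.441 to 28.2, and the let-7, miR-130, miR-125, miR-146 and miR-148 columns each span at least 4-fold. The miR-146 span rests on few reads of miR-146a, whose 16 listed bases also begin miR-146b.

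Opposite arms and neighbours from 1 precursor or primary transcript were compared in the same way. Of the 10 pairs listed from 1 hairpin, 5 had an interval of the change that excluded 1. The pair of mir-427-p3 and miR-427, whose interval held 1, shared miR-427 with the pair of mir-427-p5 and was not shown to be opposite arms. miR-181a-5p had 361.5 reads in the uninjected library, 286.5 in Lhx1-AS and 5492.5 in Fry-MO, a ratio of 16.9 (15.01 to 19.1), and was among the most read in Fry-MO. The listed opposite arm miR-181a-2-3p had 6, 15 and 8 reads, a ratio of 0.470 whose interval (0.173 to 1.18) held 1, so the arm share changed 35.9-fold (14.2 to 98.7). That arm met the rule through its Lhx1-AS reads alone. The 5p strand can come from more than 1 hairpin, and miR-181a-5p holds reads divided among sequences. Without the sequences that hold divided reads the mir-181 list keeps only that opposite arm and its median log2 ratio turns to -1.01.

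The mir-199a and mir-214 cluster, known from connective tissue, had a 5p arm with a lower ratio than its partners. miR-199a-5p had 554.5 reads in the uninjected library, 1322.5 in Lhx1-AS and 2200 in Fry-MO, a ratio of 1.47 (1.37 to 1.57). That ratio was 0.863 when scaled to the listed reads and 0.362 without mir-427 and mir-428, so its side of 1 is not fixed. miR-199a-3p had 141, 216 and 1250.5, a ratio of 5.11 (4.42 to 5.93). miR-214 had 14, 12 and 74, a ratio of 5.44 (2.94 to 11.0). The 3p per 5p share of miR-199a was 3.48-fold higher in Fry-MO than in Lhx1-AS (2.96 to 4.10), and that of miR-214 per miR-199a-5p was 3.71-fold higher (1.99 to 7.52).

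In the mir-23b, mir-27b and mir-24a cluster, known from vessels and other mesoderm, both injected libraries were above the uninjected one. miR-27b had 189.3 reads in the uninjected library, 1322.3 in Lhx1-AS and 4227.3 in Fry-MO, a ratio of 2.82 (2.65 to 3.00). miR-23b had 12, 89 and 255, a ratio of 2.53 (1.98 to 3.25), and miR-24a-3p 17, 244 and 366, a ratio of 1.32 (1.12 to 1.56). The proportion of miR-27b to miR-23b did not change beyond counting error, at 1.12-fold (0.860 to 1.44), whereas miR-27b per miR-24a-3p was 2.13-fold higher in Fry-MO (1.78 to 2.54) and miR-23b per miR-24a-3p 1.91-fold higher (1.42 to 2.59). xla-miR-23a, of a related cluster, had 23, 92 and 343 reads, a ratio of 3.29 (2.61 to 4.19). Under the scaling without mir-427 and mir-428, miR-27b, miR-23b, xla-miR-23a and miR-24a-3p turned to 0.696, 0.624, 0.812 and 0.327. miR-24a-3p also stood at 0.778 when scaled to the listed reads. The side of 1 of these miRNAs is therefore not fixed by these data.

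The 10 pairs from 1 transcript were not all separate, since miR-27b, miR-23b and miR-24a-3p were paired with each other. The pairs with miR-24a-3p rest on the same miR-24a-3p counts, and each had an interval that excluded 1. Of the 10, 5 had an interval of the change that excluded 1 and 5 did not. Among the latter, miR-191 had 195 reads in the uninjected library, 553 in Lhx1-AS and 3003 in Fry-MO, a ratio of 4.79 (4.37 to 5.25), and its neighbour miR-425-5p 11, 22 and 117, a ratio of 4.69. The change in their proportion was 1.02-fold (0.611 to 1.64). let-7c and miR-99 likewise had ratios of 1.25 and 1.21 and a change of 1.04-fold (0.793 to 1.35). Scaled to the listed reads, those ratios were 0.736 and 0.711. miR-143 and miR-145, known from smooth muscle and cut from 1 transcript, did not keep theirs. miR-143 had 46, 76 and 824 reads, a ratio of 9.56 (7.55 to 12.3), miR-145 had 4, 23 and 58, a ratio of 2.22 (1.35 to 3.78, or 0.549 when scaled without mir-427 and mir-428), and the proportion changed 4.30-fold (2.39 to 7.53).

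The study singled out 9 miRNA clusters on these same libraries, so their counts are no independent evidence. They held 24 listed sequences, of which 20 were compared, 14 called higher in Fry-MO than in Lhx1-AS, and 1, mir-212-p5, called lower. The 14 of 20 stand beside 55.2% called higher over the 96. The interval lay above 1 for 17 of the 20, beside 59.4% of the 96. Scaled without mir-427 and mir-428, 4 of the 20 were higher and 6 lower, beside 18 higher and 43 lower of the 96. The epithelial miR-200a had 14 reads in the uninjected library, 15 in Lhx1-AS and 85 in Fry-MO, a ratio of 4.998 (2.87 to 9.32), while miR-200b of the same cluster had 5, 8 and 11 (1.21, 0.444 to 3.47). miR-200a per miR-200b read was 4.12-fold higher in Fry-MO (1.21 to 13.4).

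Further members with many reads were also higher. miR-22-3p had 1900 reads in the uninjected library, 950 in Lhx1-AS and 5342 in Fry-MO, a ratio of 4.96 (4.63 to 5.32). miR-26 had 141, 167.5 and 1782 reads, a ratio of 9.38 (8.004 to 11.1). Fry-MO was above and Lhx1-AS below the uninjected library for miR-22-3p, whereas both injected libraries were above it for miR-26. miR-10b, encoded in a Hox cluster, and miR-100, a neighbour of let-7 in many genomes, had ratios of 3.43 (2.89 to 4.08) and 2.62 (2.36 to 2.93), and turned to 0.847 and 0.648 under the scaling without mir-427 and mir-428. miR-146b, an immune miRNA, was on the other side, with 340.5, 133.5 and 101.5 reads and a ratio of 0.671 (0.513 to 0.875). miR-122, the liver miRNA, had 12, 23 and 20 reads and an interval that held 1. None of the 3 listed muscle miRNAs reached 10 reads in either library.

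Read against the uninjected library, the Fry-MO count was above the uninjected one with its interval for 64 of the 96 miRNAs and below it for 12, and the Lhx1-AS count was above it for 34 and below it for 11. The interval held the uninjected level for 20 in Fry-MO and for 51 in Lhx1-AS. The rule admitted the 96 by reads in the injected libraries and never by uninjected reads. Counts above the uninjected level are thus favoured by construction, above all for the 19 admitted by Fry-MO alone and the 4 by Lhx1-AS alone. They also used the authors' scaling only. Without mir-427 and mir-428, *Xenopus*-named normalized counts summed to 10873 uninjected, 13755 in Lhx1-AS and 55698 in Fry-MO. Among the 53 called higher, Fry-MO was above for 50, and Lhx1-AS held the level for 34, was above it for 16 and below it for 3. Among the 9 called lower, Lhx1-AS was above for 6, and Fry-MO held the level for 8. Both sets were picked by the ratio of these same counts, so their numbers are a description from which nothing is read. The uninjected embryos also lacked the tracer and the picking, so treatment and handling cannot be told apart in these values.

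Names from each species and relatives listed under other names were not alike. The 14 *X. laevis* names had a median ratio of 0.857 with 3 called higher, and the 82 *X. tropicalis* names one of 3.33 with 50 called higher. Over all 96, 55.2% were called higher. The *X. laevis* names include miR-427, mir-427-p5, mir-427-p3, miR-428, miR-92a, mir-92a-1-p5 and xla-miR-363, described above as near or below 1. Those called higher were miR-142, xla-miR-23a and miR-205. The names of each species thus stand for different miRNAs, so the medians do not compare species. For 21 of the 96, a listed sequence with the same miRNA name and the same seed but a name from another animal also had 10 reads, giving 28 pairs. The ratio of the other name was the higher in 20 of the 28, and the intervals stood apart in 7 with the other name higher and in 4 with it lower. In 12 of the 28 pairs the bases differed within the shared length, and these made up 9 of the 11 whose intervals stood apart. Bases were compared position by position from the first one, without gaps. For miR-16b, a sequence named after zebrafish, which differed from the *Xenopus* one in 2 bases, had 219 reads in Lhx1-AS and 2899.5 in Fry-MO, a ratio of 11.7 (10.2 to 13.5), against 0.811 for the *Xenopus* name. For miR-10b a zebrafish-named sequence that differed in 1 base went the other way, with 84 reads against 37 (0.388, 0.256 to 0.578).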

How the data were processed

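Small RNAs of 3 pooled libraries (uninjected, Lhx1-AS, Fry-MO) were sequenced and mapped by the authors with ACGT101-miR to miRBase and to genomes. No source used here states the miRBase release or the builds. The authors deposited 1 table per series with a sequence, a name and, for each library, expected counts (raw reads, divided where a read matched several sequences, so 25 of the 96 are not whole) and normalized counts, a signal value in which the authors divided raw reads by a library size parameter and wrote 0.001 for 0. The step read summary was deposited as other text. The parameter was not described further. No column of another sample was present. 2 lines of the table are not analysed here.

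Ratios used the deposited normalized counts, and intervals the raw counts, with a confidence level of 95% and a floor of 3 reads for a count of 0. log2 ratios used a pseudocount of 1. No test was run, since there was 1 library per condition, and intervals were tested on simulated data. Raw reads numbered 5802603 (uninjected), 4805539 (Lhx1-AS) and 4493357 (Fry-MO), of which 133894, 56026 and 108041 fell on listed sequences. Named miRNAs were the 10 highest and 10 lowest ratios with at least 50 reads over both libraries, the 5 most read, members of 9 clusters, up to 3 most read of each of 21 lists, and opposite arms; others are said to be named after their values were seen. Members and lists were chosen with earlier results of these data known. Alternatives were other scalings (edgeR 4.0.16 TMM factors, DESeq2 1.42.0 size factors), filters and folds. Python 3.11.15 with scipy 1.17.1 and R 4.3.3 were used. Sequences are those of the deposited table.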

Additional observations from a re-analysis of the deposited data

Results flagged for a closer look

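Signals appeared among sequences outside the 96, above their level in the uninjected library. The 29 miRNAs of the rodent X-linked cluster had 1822 raw reads in Lhx1-AS, against 21 in Fry-MO and 12 in the uninjected library, a ratio of 0.0102 (0.00628 to 0.0156). All 15 of them with at least 10 reads reached that number in Lhx1-AS alone, so their lower calls in Fry-MO were nearly fixed by the filter. The 52 listed sequences of a placental imprinted cluster, a list made after the values were seen, had 1357 raw reads in Fry-MO, against 66.5 in Lhx1-AS and 50 in the uninjected library, a ratio of 18.0 (14.1 to 23.4), and of the 7 with at least 10 reads 6 reached that number in Fry-MO alone, so their higher calls were nearly fixed by the filter. The other, miR-127, had 41 reads in Lhx1-AS and 984 in Fry-MO. Their source was not tested.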

How the results depend on the processing

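Of the 96, 53 were called higher and 9 lower, with a median log2 ratio of 1.35. Scaled to the listed reads, 21 were lower. Scaled to *Xenopus* reads without mir-427 and mir-428, 18 were higher and 43 lower and the median turned to -0.64. With at least 50 reads 1 of 58 was lower, 40 were higher and the median was 2.14. Over all names the counts were 154 and 59, and at 4-fold 1 was lower. The other 28 values of these counts and of the median, among them those under mappable-read, TMM and DESeq2 scaling, no filter, summed names, whole reads, a pseudocount of 10, a fold of 1.5 and intervals, kept their direction and stayed within 1.5 times the count or within the spread used for the median. Under the scaling without mir-427 and mir-428, 34 of the 70 ratios above 1 turned below 1. Among the named miRNAs with a 2-fold call these were 0.958 (miR-30a-3p), 0.851 (miR-125b), 0.847 (miR-10b), 0.812 (xla-miR-23a), 0.696 (miR-27b), 0.648 (miR-100), 0.635 (miR-126-3p), 0.624 (miR-23b), 0.549 (miR-145), 0.545 (xtr-miR-23a) and 0.504 (miR-221), and list medians of the log2 ratio turned to -0.60 (mir-23/24/27), -0.43 (mir-10, mir-125 and relatives), -0.028 (mir-130 and mir-301) and -0.14 (neural and sensory). Outside the naming rule, miR-30c turned to 0.834 under that scaling. With whole reads only, the mir-181 median was -1.01, since 1 member was left. No paired analysis was possible because there was 1 library per condition, and for the same reason no replicate could be left out. Depth limits miR-96, miR-15a and let-7i, which rest on 1, 2 and 6 reads in Lhx1-AS.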

Other observations

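Sequences predicted from the genome, with no miRBase name, did not follow the *Xenopus*-named ones. Of the 38 with at least 10 reads, 8 were called lower in Fry-MO than in Lhx1-AS and 0 higher. Over all 323 sequences compared, 18.3% were called lower and 47.7% higher, so these stood apart by the lack of higher calls rather than by the lower ones. The summed ratio of the predicted sequences was 0.986 (0.966 to 1.01). Their share of listed reads was 54.0% without injection, 33.1% after Lhx1-AS and 19.2% after Fry-MO. Sequences named after chordates other than frogs and placental mammals had a summed ratio of 3.04 (2.90 to 3.18), and *Xenopus*-named sequences without mir-427 and mir-428 one of 4.05 (3.97 to 4.14).

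Across the 96 miRNAs, which share the same pair of libraries and are not independent, Spearman's rho of the ratio was -0.316 with GC content, -0.147 with length and -0.033 with the level in the uninjected library, given as a description.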
